A study of Mus musculus with 12 samples.

Results

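DNA replication machinery is described here as a set of 50 genes, from the complex that marks replication origins to the enzymes that make deoxynucleotides, in mouse thymocytes at 3 successive early stages. Each gene was represented by its brightest probe set among those that the platform annotation gives 1 gene symbol. All 50 of the 50 were found among the 18193 genes of the array, and all 50 passed the filter on dim signals that left 11241 genes for testing. The 3 stages were CD4- and CD8-depleted thymocytes of female C57BL/6 mice aged 5 to 6 weeks, with no genetic change or treatment named in the labels. DN2 cells were sorted as positive for CD44 and for CD25, DN3 cells as negative for CD44 and positive for CD25, and DN4 cells as negative for both. All 3 populations were negative for one stain that covered the gamma-delta T cell receptor, CD3, NK1.1, CD4 and CD8. Each stage was sorted in 4 separate experiments, each from the pooled cells of 4 mice (16 mice), and the 12 RNA samples were amplified by repeated rounds of cDNA synthesis and hybridised to Affymetrix Mouse Genome 430 2.0 arrays. Arrays of the same number came from the same pool of cells, so sort 1 of DN2, DN3 and DN4 are one set of mice.

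A cell prepares each origin of replication in an ordered way. The origin recognition complex binds DNA and, with Cdc6 and Cdt1, loads the ring-shaped MCM helicase, a step that geminin blocks. The kinases Cdc7 with Dbf4 and Cdk2 with cyclin E then fire the origin by adding Cdc45 and the GINS complex to the ring. Primase with polymerase alpha starts each strand, the RFC complex loads the sliding clamp PCNA, and polymerases delta and epsilon extend the strands while RPA covers the single-stranded DNA. Thymocytes divide at the DN2 stage, most DN3 cells rest while the T cell receptor beta gene is rearranged, and cells that make a working beta chain divide rapidly as they become DN4 cells. Many of these genes are known targets of the E2F transcription factors, which act at the start of S phase.

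The deposited values are linear probe set signals, and the arrays were not on one scale. The array median was 15.2 to 28.1, and in log2 units DN4 arrays were 0.41 below DN3 arrays (-0.41; means 4.08 ± 0.11 and 4.49 ± 0.17, SD, n = 4 each; two-sided exact permutation p = 0.0286, the smallest this design allows; 0.0613 after Benjamini-Hochberg adjustment over 30 array measures). Signals were therefore quantile-normalized, which gives all arrays one distribution, and a difference below is a log2 difference relative to the other genes on the arrays. Stage markers followed the sort: Cd44 had a mean log2 signal of 9.44 in DN2, 5.75 in DN3 and 5.62 in DN4, and Il2ra, the gene of CD25, 11.2, 10.46 and 6.9. The summed signal of the CD4 and CD8 thymocyte markers Cd4, Cd8a and Cd8b1 was 6.89 to 23.2 in DN2, 22.8 to 69.4 in DN3 and 385 to 591 in DN4. Of these, Cd8a and Cd8b1 passed the filter and Cd4 did not (log2 signal 3.3 in DN4). The summed signal of 5 mast cell markers was 3800 to 4630 in DN2, 349 to 437 in DN3 and 145 to 158 in DN4. It came mostly from Cpa3 and Kit, while Fcer1a, Ms4a2 and Tpsb2 were below the filter. Kit was also listed among the DN stage markers, so this sum does not measure mast cells alone. The 9 myeloid markers summed to 450 to 1070 in DN2, 180 to 280 in DN3 and 126 to 218 in DN4. The erythroid markers summed to 33.5 to 45.7 in DN2, 41 to 60.9 in DN3 and 72.5 to 128 in DN4, with Klf1 as their 1 gene above the filter. Klf1 itself differed by 0.09 between DN4 and DN3 and by 0.15 between DN4 and DN2, and did not pass. Markers of mature T cells summed to 341 to 486, 239 to 335 and 401 to 644, and those of B cells to 365 to 470, 289 to 408 and 252 to 391. The part of these other transcripts in the results on replication genes was not tested. In such bulk samples a larger share of cells in S phase cannot be told apart from more RNA of these genes per cell.

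Replication genes were higher in DN4 than in DN3 by sign for most members, with moderate sizes. In this comparison 27 of the 50 rose and none fell at an adjusted p under 0.05 (limma on all genes tested, Benjamini-Hochberg adjustment); such genes are said below to have passed. Over all genes tested 7.08% rose and 8.88% fell. The median difference over the 50 genes was 0.50, against 0.05 over all genes tested, and by sort it was 0.52, 0.64, 0.41 and 0.38. Single genes ranged from -0.16 for Prim2 to 1.10 for Ccne2, and Ccne2 alone passed with at least a 2-fold change. By sign 47 of the 50 were higher in DN4 in 4 of 4 sorts, and the share over all genes tested was not counted. The 27 that passed are among these, but they were chosen on the same arrays, so their agreement by sort adds no support. For 38 of the 50 every DN4 array lay above every DN3 array, which held for 12.5% of all genes tested. A fit with the sort as a block, since the labels pair the arrays, gave 38 that rose and none that fell, against 15.2% and 14.7% of all genes tested. Without adjustment 40 were higher at a p under 0.05 and 0 lower, by limma, against 16.1% and 15.1% of all genes. With the block the unadjusted numbers were 43 and 0, against 22.6% and 19.5%. The higher mature T cell and CD4 and CD8 thymocyte marker sums of DN4 moved with this comparison. So did the erythroid sum, though its 1 gene above the filter, Klf1, did not pass (0.09). The part of these sums was not tested.

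**Figure D1:**
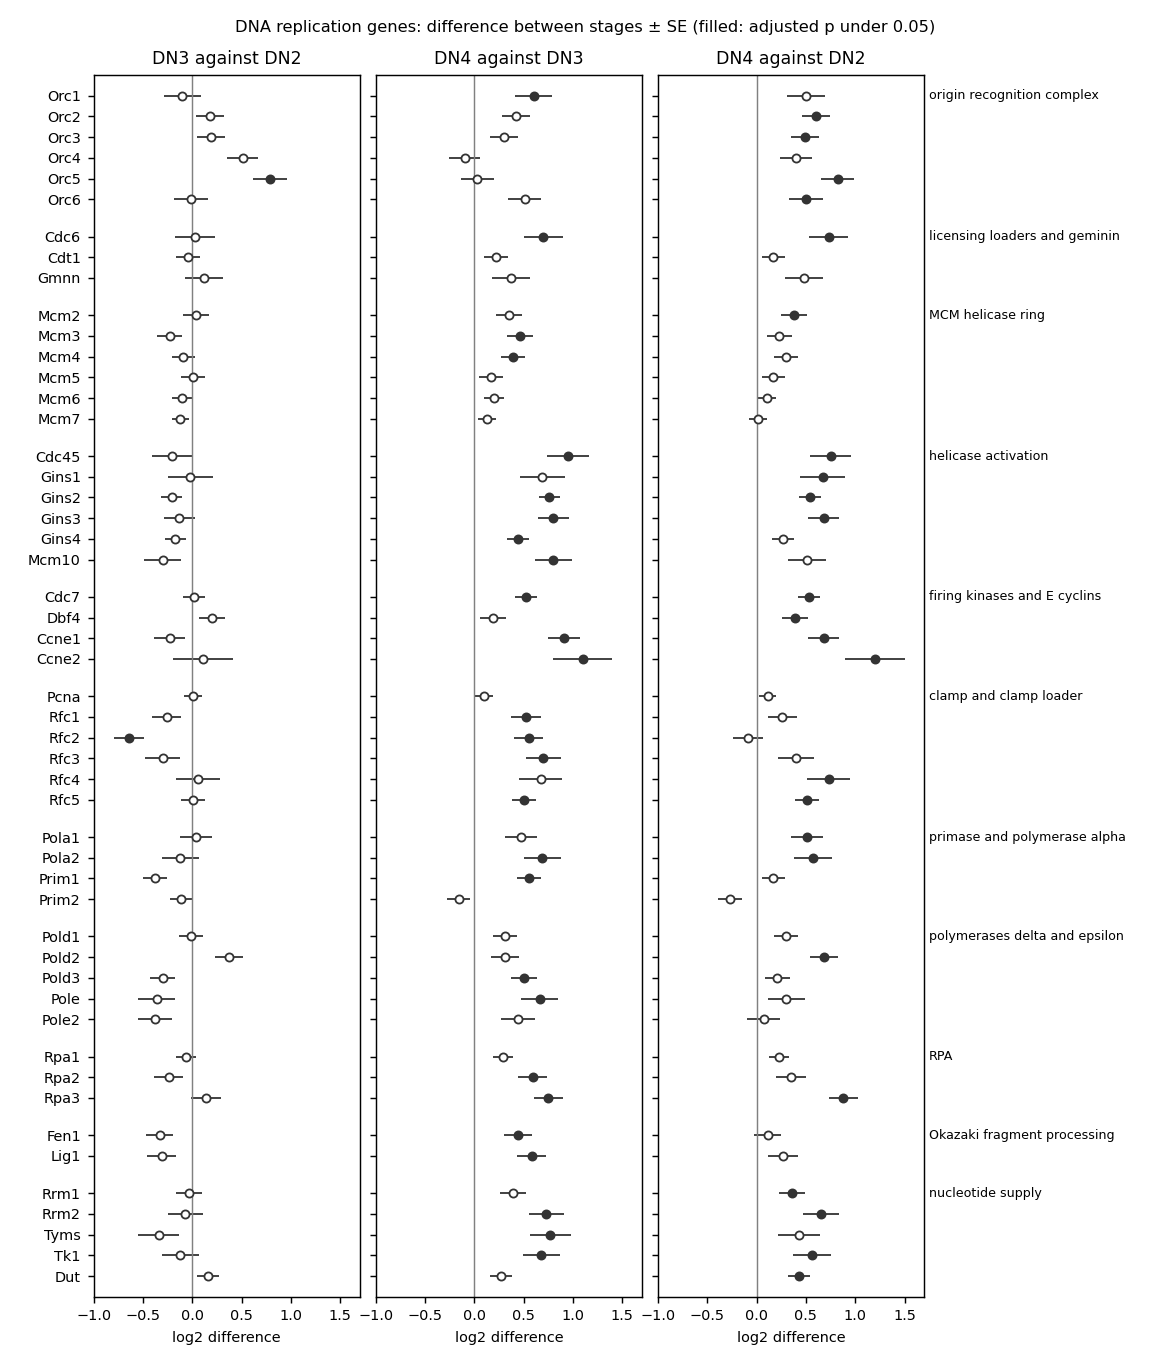
Log2 difference between stages for each of the 50 replication genes, grouped by subcomplex, as fitted over 12 arrays. Points are differences on the x axis, bars are standard errors and filled points passed at an adjusted p under 0.05; filled points are scarce for DN3 against DN2 (2) and frequent for DN4 against DN3 (27) and DN4 against DN2 (24).

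The 11 subcomplexes differed in how many members passed between DN3 and DN4. Median differences were 0.78 for the helicase activation factors, 0.71 for the firing kinases and E cyclins and 0.68 for nucleotide supply, against 0.36 for the origin recognition complex and 0.27 for the MCM ring. In each of the 4 sorts the MCM ring median lay within 0.26 to 0.31, and every median of a subcomplex in a single sort was above 0, from 0.19 upwards. The differences between subcomplexes were not tested, since they hold 2 to 6 genes each.

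**Figure D2:**
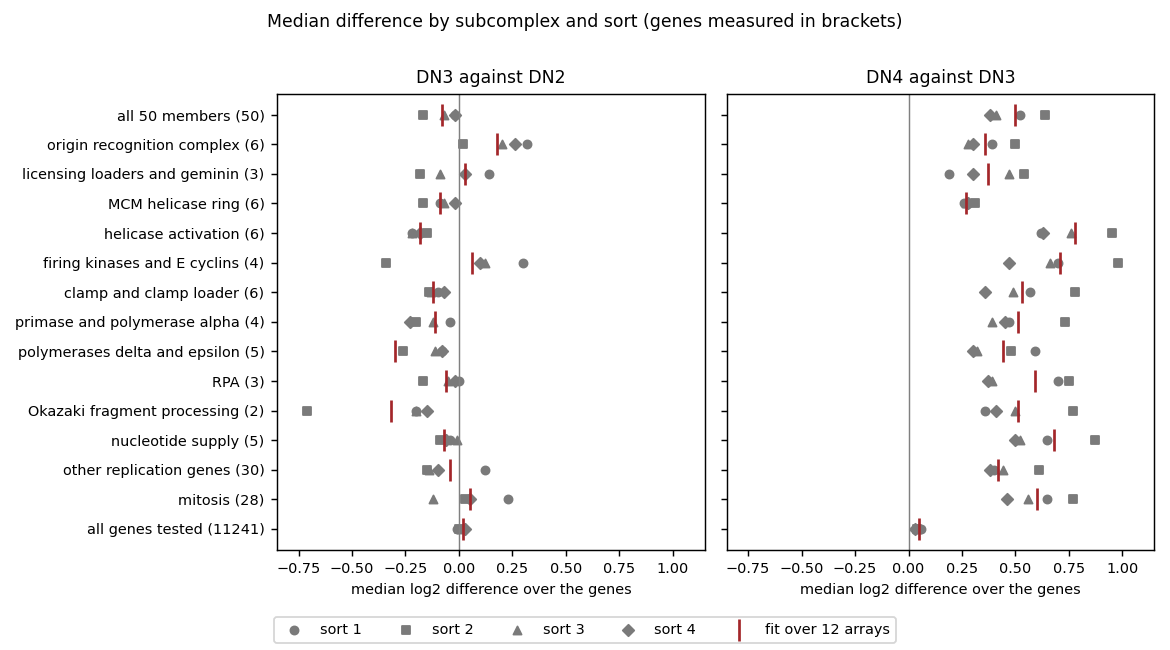
Median log2 difference (x axis) over the genes of each subcomplex and of other lists (y axis, number of genes in brackets), for each sort (grey symbols) and for the fit over 12 arrays (red line). From DN3 to DN4 all sorts of all subcomplexes lie above 0, while all genes tested stay near 0; from DN2 to DN3 the symbols lie on both sides of 0.

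Sequences upstream of these genes were set beside the values, because E2F sites are the shared regulatory feature the family is known for. RefSeq promoter windows of GRCm38.p6 (250 bases before to 50 after a transcript start) were matched for 41 of the 50 genes; Ccne2, Gins1, Gins2, Gins4, Gmnn, Mcm4, Pole, Prim2 and Rfc2 were not matched. On both strands 5 words of the E2F type (TTTCCCGC, TTTGGCGC, TTTCGCGC, TTTGGCGG and TTTCCCGG) and the CCAAT box were searched. An E2F word was present for 18 of the 41 genes (43.9%), against 4.1% of the 27025 genes of the table; by window this is 36% against 3.59%. A CCAAT box was present for 23 of the 41 (56.1%), against 41.1%. Among matched genes that rose from DN3 to DN4, 8 of 21 had an E2F word, and among those that did not pass, 10 of 20 had one. A match of letters is a description and no evidence of binding. Windows are shown 5′ to 3′ on the gene's strand with the E2F words in capitals, for the loader Cdc6, the ring subunits Mcm3 and Mcm6, the ligase Lig1, and Rpa3, whose window holds 2 CCAAT boxes and no E2F word. Coordinates are chr11:98907901-98908200 (plus strand) for Cdc6, chr1:20820263-20820562 (minus) for Mcm3, chr1:128359656-128359955 (minus) for Mcm6, chr7:13278576-13278875 (plus) for Lig1 and chr6:8259092-8259391 (minus) for Rpa3. In Mcm6 a pair of E2F words on opposite strands overlap in the first run of capitals. Of the matched genes 7 had several windows, and a gene was counted as having a word if any of its windows held one. Lig1 is among them, and the window shown is the one with E2F words. Its windows starting at 13276925 and 13279015 held none.
Cdc6: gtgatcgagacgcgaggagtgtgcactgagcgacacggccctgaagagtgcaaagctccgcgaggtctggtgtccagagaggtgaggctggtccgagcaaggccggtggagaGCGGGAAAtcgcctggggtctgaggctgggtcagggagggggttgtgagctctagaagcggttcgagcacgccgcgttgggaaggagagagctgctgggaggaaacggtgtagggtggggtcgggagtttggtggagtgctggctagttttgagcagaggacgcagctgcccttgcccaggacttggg
Mcm3: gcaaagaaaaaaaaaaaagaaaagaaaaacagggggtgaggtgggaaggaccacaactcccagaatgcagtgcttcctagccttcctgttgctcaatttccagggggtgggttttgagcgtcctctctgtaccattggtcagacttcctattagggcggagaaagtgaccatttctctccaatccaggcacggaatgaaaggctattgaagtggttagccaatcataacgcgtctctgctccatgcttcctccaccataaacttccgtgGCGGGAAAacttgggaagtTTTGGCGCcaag
Mcm6: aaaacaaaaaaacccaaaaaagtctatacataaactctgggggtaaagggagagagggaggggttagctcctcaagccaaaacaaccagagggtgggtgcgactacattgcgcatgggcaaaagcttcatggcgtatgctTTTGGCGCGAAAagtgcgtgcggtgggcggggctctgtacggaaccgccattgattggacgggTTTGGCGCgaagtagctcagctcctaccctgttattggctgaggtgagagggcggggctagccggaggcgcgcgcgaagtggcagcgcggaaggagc
Lig1: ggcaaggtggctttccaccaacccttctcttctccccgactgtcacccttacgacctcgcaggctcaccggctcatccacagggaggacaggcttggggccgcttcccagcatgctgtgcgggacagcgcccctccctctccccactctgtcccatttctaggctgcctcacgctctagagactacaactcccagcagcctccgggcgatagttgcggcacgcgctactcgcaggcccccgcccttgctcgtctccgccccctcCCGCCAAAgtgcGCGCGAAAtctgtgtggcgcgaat
Rpa3: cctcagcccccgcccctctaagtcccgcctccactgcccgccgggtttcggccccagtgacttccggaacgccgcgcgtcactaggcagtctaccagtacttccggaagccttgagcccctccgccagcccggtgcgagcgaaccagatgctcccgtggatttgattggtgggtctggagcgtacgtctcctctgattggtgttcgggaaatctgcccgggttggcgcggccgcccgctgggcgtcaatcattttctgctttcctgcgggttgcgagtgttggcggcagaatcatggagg

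In the origin recognition complex, Orc1 rose from DN3 to DN4 (0.60 ± 0.19, SE, adjusted p = 0.0469, limma), while the other 5 subunits did not pass. Orc2 (0.42), Orc6 (0.51) and Orc3 (0.30) were higher in 4 of 4 sorts, and with the sort as a block Orc2 and Orc6 passed. Orc5, a core subunit, had the smallest adjusted p of the complex, and its step lay earlier. Signal of Orc5 was 155, 172, 196 and 195 on the DN2 arrays of sorts 1 to 4, 413, 284, 262 and 311 on the DN3 arrays and 373, 260, 292 and 366 on the DN4 arrays. Every DN3 and DN4 array was above every DN2 array, and DN3 and DN4 overlapped. The difference was 0.79 ± 0.17 between DN3 and DN2 (1.73-fold, adjusted p = 0.00862, limma), 0.03 ± 0.17 between DN4 and DN3 and 0.82 ± 0.17 between DN4 and DN2 (adjusted p = 0.00254, limma). Orc4 had a like course without passing: 414, 341, 439 and 390 in DN2, 689, 459, 564 and 562 in DN3, and 545, 400, 609 and 564 in DN4. For Orc4 the DN3 arrays were all above the DN2 arrays (0.51 ± 0.16, adjusted p = 0.0614, limma; 0.00691 with the sort as a block). Its 4 probe sets did not all point one way from DN3 to DN4: from the brightest down they gave -0.10, -0.14, 0.07 and -0.48.

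Of the licensing factors, Cdc6 rose and the loader Cdt1 (0.22 ± 0.12) and its inhibitor geminin, Gmnn (0.37 ± 0.19), did not pass in any comparison. Signal of Cdc6 was 1538, 1376, 1233 and 2051 in DN2, 1561, 1155, 1530 and 2093 in DN3, and 2425, 2545, 2154 and 3084 in DN4. All DN4 arrays were above all others, and sort 4 was the highest of each stage. DN4 exceeded DN3 by 0.70 ± 0.20 (1.63-fold, adjusted p = 0.0327, limma) and DN2 by 0.73 ± 0.20. Gmnn also passed with the sort as a block between DN4 and DN2 (0.48, adjusted p = 0.02, limma).

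The MCM ring, the core of the replicative helicase, had the smallest median difference from DN3 to DN4 (0.27) when each gene was represented by its brightest probe set. With the next-brightest probe set, where a gene had one with a signal of at least 134, the ring median was 0.44 and that of polymerases delta and epsilon, 0.31, was the smallest. Mcm3 and Mcm4 rose (0.46 and 0.39), and Mcm2 (0.35), Mcm5 (0.17), Mcm6 (0.20) and Mcm7 (0.13) did not pass, Mcm2 passing with the sort as a block. Signal of Mcm3 was 2932, 3412, 3122 and 3865 in DN2, 2694, 2638, 2700 and 3277 in DN3, and 3769, 4050, 3352 and 4419 in DN4. All DN4 arrays were above all DN3 arrays (1.38-fold, adjusted p = 0.0309, limma), and DN2 overlapped both. Mcm6 was at 4574, 4935, 4345 and 5104 in DN2, 4533, 4366, 4125 and 4684 in DN3, and 5325, 4928, 4742 and 5294 in DN4, so its DN4 arrays also lay above all DN3 arrays, by a small margin. Mcm7 was at 7966, 7727, 7502 and 7782 in DN2, 6909, 6854, 7202 and 7628 in DN3, and 7782, 7843, 7648 and 7954 in DN4, with all DN4 arrays above all DN3 arrays and DN2 overlapping both. Between DN4 and DN2, of the 6 ring genes Mcm2 passed (0.38 ± 0.13, adjusted p = 0.034, limma), and Mcm3 and Mcm4 passed in addition with the sort as a block (adjusted p = 0.0447 and 0.0109, limma).

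Probe sets of the same ring gene gave different sizes. For Mcm3 the brightest probe set gave 0.46 from DN3 to DN4 and the others, from brighter to dimmer, 0.67, 0.74, 0.76 and 0.39. For Mcm5 the brightest probe set gave 0.17 from DN3 to DN4 and the next 0.66. That brightest Mcm5 probe set read 4313, 4233, 5206 and 5206 in DN2, 4910, 4326, 4593 and 5180 in DN3, and 4985, 4974, 5582 and 5803 in DN4, with overlapping stages. For Mcm7 the values were 0.13 for the brightest and 0.41, 0.41 and 0.17 for the others. For Mcm6 they were 0.20 and 0.06, and between DN4 and DN2 these differed in sign (0.10 and -0.03).

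Factors that switch the loaded ring on rose together: 5 of 6 passed between DN3 and DN4 (Cdc45, Gins2, Gins3, Gins4 and Mcm10), and Gins1 (0.69 ± 0.23, adjusted p = 0.0571, limma) passed with the sort as a block. Gins2, a GINS subunit, had the smallest adjusted p of the 50 genes in this comparison. Its signal was 686, 633, 633 and 761 in DN2, 642, 530, 513 and 658 in DN3, and 984, 1017, 940 and 1012 in DN4. All DN4 arrays stood clear of both other stages, and DN2 and DN3 overlapped. The rise from DN3 was 0.76 ± 0.11 (1.69-fold, adjusted p = 0.00128, limma) and the difference from DN2 was 0.54 ± 0.11 (adjusted p = 0.00337, limma). Cdc45, which completes the active helicase, rose by 0.95 ± 0.21 from DN3, Gins3 by 0.80, Mcm10 by 0.80 and Gins4 by 0.44. Cdc45, Gins1, Gins2 and Gins3 also passed between DN4 and DN2, as Gins4 and Mcm10 did with the block (adjusted p = 0.0422 and 0.0353, limma).

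Firing kinases and E cyclins included the greatest rise of the 50 genes, that of Ccne2. Ccne2 (1.10 ± 0.30, 2.14-fold, adjusted p = 0.0289, limma), Ccne1 and Cdc7 (0.52 ± 0.11) rose from DN3 to DN4, and Dbf4, the activating subunit of Cdc7, did not pass (0.19 ± 0.13). Signal of Ccne1 was 532, 634, 476 and 576 in DN2, 436, 360, 498 and 621 in DN3, and 859, 914, 917 and 851 in DN4. The DN4 arrays lay close together above all others, and DN3 sort 2 was the lowest. The difference was 0.91 ± 0.16 from DN3 (1.87-fold, adjusted p = 0.00263, limma), and the sorts ranged from 0.45 to 1.33. Between DN4 and DN2 all 4 of these genes passed, Ccne2 with 1.20 ± 0.30 (2.3-fold), Ccne1 with 0.68, Cdc7 with 0.53 and Dbf4 with 0.39.

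**Figure D3:**
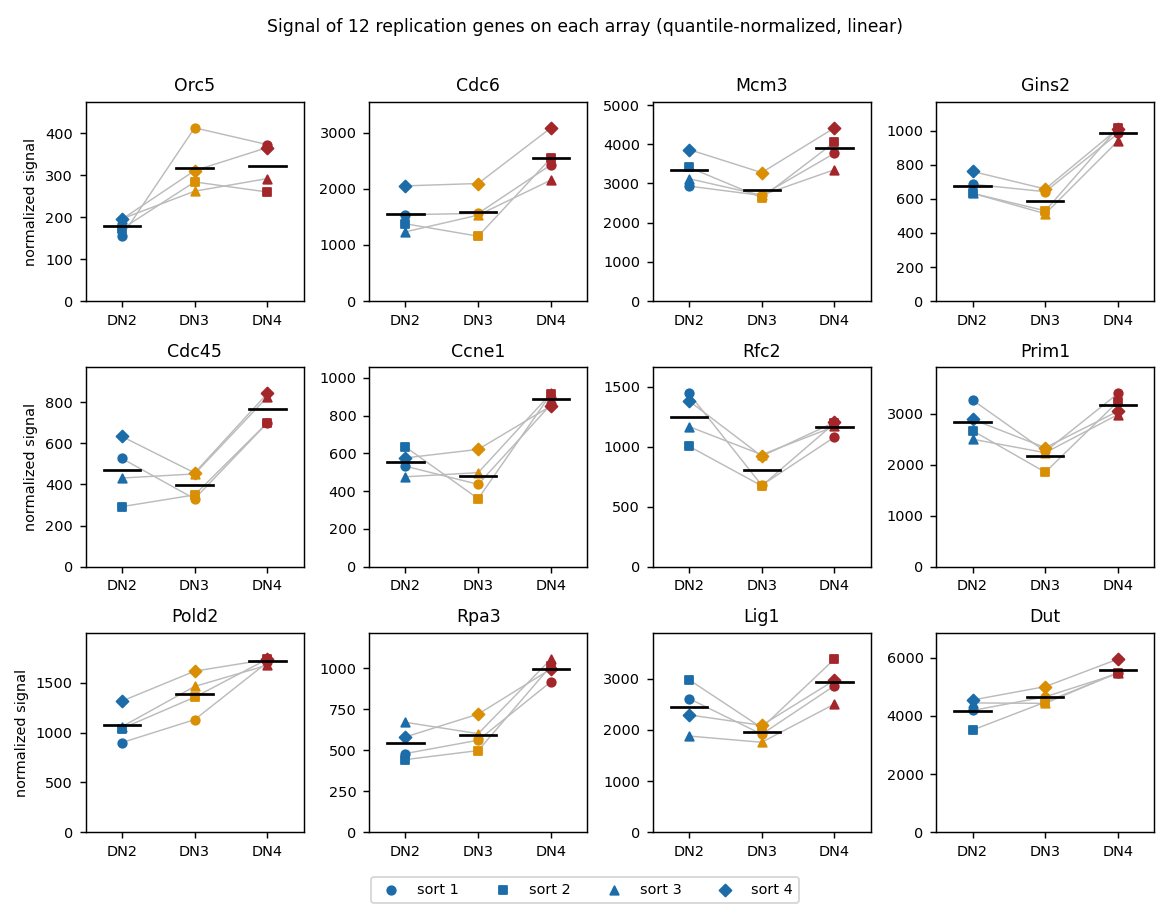
Quantile-normalized linear signal (y axis, from 0) of 12 replication genes on each array, by stage (x axis). Symbols are sorts joined by grey lines and black bars are means of 4; the DN4 arrays of Gins2, Cdc45, Ccne1 and Rpa3 lie above all arrays of DN2 and DN3, Rfc2 and Prim1 dip in DN3, and Orc5 steps up at DN3.

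For the clamp and its loader, Rfc1, Rfc2, Rfc3 and Rfc5 rose from DN3 to DN4 (0.50 to 0.70), Rfc4 (0.67 ± 0.22, adjusted p = 0.055, limma) passed with the sort as a block, and the clamp Pcna did not pass (0.10 ± 0.09). Rfc5 was at 959, 872, 809 and 1032 in DN2, 967, 865, 835 and 1032 in DN3, and 1324, 1442, 1166 and 1289 in DN4. Its DN2 and DN3 arrays were nearly alike (0.01 ± 0.12) and its DN4 arrays were all above them, by 0.50 ± 0.12 over DN3 and 0.51 ± 0.12 over DN2 (adjusted p = 0.0156 and 0.00608, limma). Rfc2 passed in opposite directions at the successive steps, as Prim1 and Pole did in addition in the blocked fit. Rfc2 was at 1444, 1004, 1168 and 1382 in DN2, 679, 674, 934 and 921 in DN3, and 1080, 1196, 1169 and 1204 in DN4. The DN3 arrays were below all others, and DN2 and DN4 overlapped. The fall to DN3 was -0.64 ± 0.15 (adjusted p = 0.0172, limma), the rise to DN4 0.55 ± 0.15 (adjusted p = 0.0293, limma) and the net difference -0.09 ± 0.15. The fall did not pass without DN3 sort 1 (-0.57, adjusted p = 0.0519, limma) or DN3 sort 2 (-0.56, adjusted p = 0.0525), without normalization between arrays (-0.47, adjusted p = 0.37), with arrays centred on their median (-0.50, adjusted p = 0.0926) or when all its probe sets were averaged (-0.59, adjusted p = 0.0911). Nor did it pass in sorts 1 and 2 alone (-0.81, adjusted p = 0.103, limma), in sorts 3 and 4 alone (-0.46, adjusted p = 0.113), with the block and without sort 4 (-0.65, adjusted p = 0.0581) or at the next-brightest probe set (-0.48, adjusted p = 0.205).

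In primase and polymerase alpha, which lay down primers, Prim1 and Pola2 rose (0.55 and 0.69), Pola1 (0.47) passed with the sort as a block, and Prim2 did not pass. Signal of Prim1, the catalytic primase subunit, was 3273, 2672, 2503 and 2893 in DN2, 2262, 1855, 2238 and 2336 in DN3, and 3401, 3243, 2987 and 3054 in DN4. DN3 was below both other stages on all arrays, and DN2 overlapped DN4. The step to DN4 was 0.55 ± 0.12 (adjusted p = 0.00902, limma) and that to DN3 was -0.38 ± 0.12 (adjusted p = 0.0584, limma; 0.0232 with the sort as a block). Prim2, the large primase subunit, was at 947, 1134, 1152 and 1331 in DN2, 1139, 984, 1002 and 1072 in DN3, and 823, 980, 933 and 1032 in DN4. It was lower in DN4 than in DN3 in 4 of 4 sorts by sign (-0.16 ± 0.12, adjusted p = 0.413, limma), and its other bright probe set gave 0.06.

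Of the subunits of polymerases delta and epsilon, Pold3 (0.50) and Pole (0.66) rose from DN3 to DN4, and Pold1 (0.31), Pold2 (0.31) and Pole2 (0.44) did not pass, the first pair of these passing with the sort as a block. Pold2, an accessory subunit of polymerase delta, passed over the whole span from DN2 to DN4. It was at 900, 1041, 1059 and 1316 in DN2, 1130, 1355, 1463 and 1616 in DN3, and 1705, 1737, 1676 and 1734 in DN4. By sign it was higher at each step in 4 of 4 sorts, but neither step passed (0.37 ± 0.14, adjusted p = 0.118, and 0.31 ± 0.14, adjusted p = 0.145, limma), and the net difference was 0.68 ± 0.14 (1.6-fold, adjusted p = 0.00264, limma). The catalytic subunits Pold1 and Pole did not pass between DN4 and DN2 (0.30 each), but did with the sort as a block.

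RPA, the single-strand binding trimer, had 2 of 3 subunits that rose from DN3 to DN4, Rpa2 (0.59) and Rpa3 (0.75); Rpa1 (0.29 ± 0.10, adjusted p = 0.0694, limma) passed with the sort as a block. Rpa3, the smallest subunit, whose promoter is shown above, was at 480, 443, 670 and 581 in DN2, 561, 498, 601 and 720 in DN3, and 917, 1014, 1055 and 995 in DN4. All DN4 arrays were above all others, and DN2 and DN3 overlapped. Its difference was 0.75 ± 0.15 from DN3 (adjusted p = 0.00638, limma) and 0.88 ± 0.15 from DN2 (1.84-fold, adjusted p = 0.000833, limma).

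Both genes of Okazaki fragment processing, the flap nuclease Fen1 (0.44 ± 0.14) and the ligase Lig1, rose from DN3 to DN4, and neither passed between DN4 and DN2. Signal of Lig1 was 2612, 2980, 1880 and 2293 in DN2, 1915, 2041, 1758 and 2089 in DN3, and 2863, 3382, 2505 and 2969 in DN4. DN4 was above DN3 on all arrays (0.58 ± 0.15, 1.49-fold, adjusted p = 0.0213, limma), and DN2 overlapped both. Lig1 passed between DN4 and DN2 as well with the sort as a block (0.27, adjusted p = 0.0401, limma).

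Among enzymes of nucleotide supply, the ribonucleotide reductase subunit Rrm2 (0.73), thymidylate synthase Tyms (0.77) and thymidine kinase Tk1 (0.68) rose from DN3 to DN4, and Rrm1 (0.39) and the dUTPase Dut (0.27) passed with the sort as a block. Dut was at 4188, 3515, 4448 and 4548 in DN2, 4658, 4477, 4433 and 5009 in DN3, and 5459, 5476, 5493 and 5954 in DN4. Its DN4 arrays stood above all others, and it passed between DN4 and DN2 (0.43 ± 0.11, adjusted p = 0.00892, limma). Rrm1, Rrm2 and Tk1 also passed in that comparison, and Tyms did not (0.43 ± 0.21), except with the sort as a block (adjusted p = 0.0492, limma).

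Between DN3 and DN2 few replication genes differed. Orc5 rose and Rfc2 fell, so 1 of the 50 passed in each direction, against 4.68% of all genes tested that rose and 6.32% that fell. The median difference was -0.08, against 0.02 over all genes tested, and 8 of the 50 had an unadjusted p under 0.05, against 24.8% of all genes. By sign 18 of the 50 were higher in DN3. Without normalization between arrays 32 were (median 0.09) and with median centring 30 (median 0.06), so the sign against 0 depended on the scaling. The medians over all genes tested were then 0.13 and 0.1. The median of the 50 thus lay slightly below that of all genes under these scalings too. With quantile normalization 14 of the 50 lay above the median of all genes, and 20 did without normalization or with centring. These gaps were not tested. With the sort as a block Orc4, Orc5 and Pold2 rose, and Rfc2, Prim1 and Pole fell, 3 of 50 each way against 9.67% and 10.7% of all genes. None of the helicase activation factors passed, with values from -0.30 for Mcm10 to -0.02 for Gins1, and without normalization from -0.14 for Mcm10 to 0.12 for Gins1. The lower myeloid marker sum given above and the lower mast cell marker sum, mostly Cpa3 and Kit, moved with this comparison, and their part was not tested.

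Between DN4 and DN2, a comparison that shares its DN4 and DN2 arrays with the earlier ones, as those share the DN3 arrays, 24 of the 50 rose and none fell, against 17.8% and 16.5% of all genes tested. The median difference was 0.42, against 0.06 over all genes tested. In 23 genes all DN4 arrays lay above all DN2 arrays, which held for 17% of all genes tested. Blocking by sort gave 39 that rose and none that fell, against 24.7% and 21.8% of all genes. Without adjustment 34 were higher and 1, Prim2, was lower at a p under 0.05 by limma, against 23.7% and 20.8%. With the block these were 39 and 1, against 29.1% and 25%. Without normalization between arrays none of the 50 passed by limma, while 287 of 11202 genes tested rose and 2745 fell. The median over the 50 was then 0.19 and that over all genes -0.29. At an unadjusted p under 0.05, 4 of the 50 were higher and 1 lower, against 4.6% and 32.9% of all genes. Without DN4 sort 4 the number that rose was 15, where 1578 of the 11149 genes tested rose. A fall of 1 of the 50 passed without DN2 sort 1, beside 21 that rose. With the block and without sort 1 there was also 1 that fell, beside 31 that rose. Over all genes 1637 of 11002 and 2141 of 10757 fell in these fits.

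The calls divided the 50 genes by course. Cdc6, Cdc45, Gins2, Gins3, Cdc7, Ccne1, Ccne2, Rfc5, Pola2, Rpa3, Rrm2 and Tk1 (12) passed against both earlier stages. Orc1, Mcm3, Mcm4, Gins4, Mcm10, Rfc1, Rfc2, Rfc3, Prim1, Pold3, Pole, Rpa2, Fen1, Lig1 and Tyms (15) passed against DN3 and not against DN2. Orc2, Orc3, Orc5, Orc6, Mcm2, Gins1, Dbf4, Rfc4, Pola1, Pold2, Rrm1 and Dut (12) passed against DN2 and not against DN3. Orc4, Cdt1, Gmnn, Mcm5, Mcm6, Mcm7, Pcna, Prim2, Pold1, Pole2 and Rpa1 (11) passed in neither. With the sort as a block 34 genes passed against both earlier stages, among them all 12 above. Rfc2, Prim1, Pold3 and Fen1 (4) then passed against DN3 and not against DN2, Orc3, Orc4, Orc5, Gmnn and Dbf4 (5) against DN2 and not against DN3, and 7 in neither. Passing in one comparison and missing in another does not show that the sizes differ. The sizes against DN3 and against DN2 differ by the difference between DN3 and DN2. In that comparison Orc5 and Rfc2 passed, and with the sort as a block Orc4, Pold2, Prim1 and Pole in addition. A separate question is whether the successive steps, DN2 to DN3 and DN3 to DN4, differ. This was tested as the mean of DN2 and DN4 against DN3. There Gins2 (0.49 ± 0.10), Ccne1 (0.57 ± 0.13), Rfc2 (0.59 ± 0.13) and Prim1 (0.46 ± 0.10) were above DN3 and none was below, 4 of 50 against 2.11% of all genes tested above and 2.74% below. A fit with the sort as a block put 23 above, and Orc4 was below (-0.31 ± 0.08, adjusted p = 0.0457, limma), against 5.83% and 6.3% of all genes. Without adjustment 25 were above and 2, Orc4 and Orc5, below at a p under 0.05, against 9.48% and 9.09% of all genes. No gene passed without DN3 sort 2, and 1 passed without DN3 sort 1 or without DN3 sort 3. Over all genes tested, 98 were above and 157 below without DN3 sort 2 (of 11135). Without DN3 sort 1 these were 121 and 194 (of 11102), and without DN3 sort 3 they were 132 and 191 (of 11086).

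How these shifts read depended on the scaling of the arrays. Without normalization between arrays no replication gene passed from DN3 to DN4 by limma. At an unadjusted p under 0.05 there was 1 higher and there were 2 lower, against 0.696% and 38.7% of all genes. Gins2 was deposited as 848, 564, 621 and 632 in DN3 and 729, 825, 857 and 888 in DN4. Rpa3 was deposited as 745, 530, 727 and 692 in DN3 and 669, 824, 973 and 872 in DN4. In sort 1 both genes had the lower deposited signal in DN4, on an array whose median was 15.2 against 25.8 for DN3. The median over the 50 genes was then 0.11 and that over all genes tested -0.41, and among all genes tested 40 rose and 2839 fell. The gap between these medians was 0.53, against 0.45 with quantile normalization. Under both treatments 47 of the 50 lay above the median of all genes, while those above 0 numbered 36 without normalization and 48 with it. Centring each array on its median gave 13 of the 50 that rose, with 253 of 11192 genes tested that rose and 1486 that fell. Scaling to a common trimmed mean gave 35, with 656 and 1214 of 11240.

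**Figure D4:**
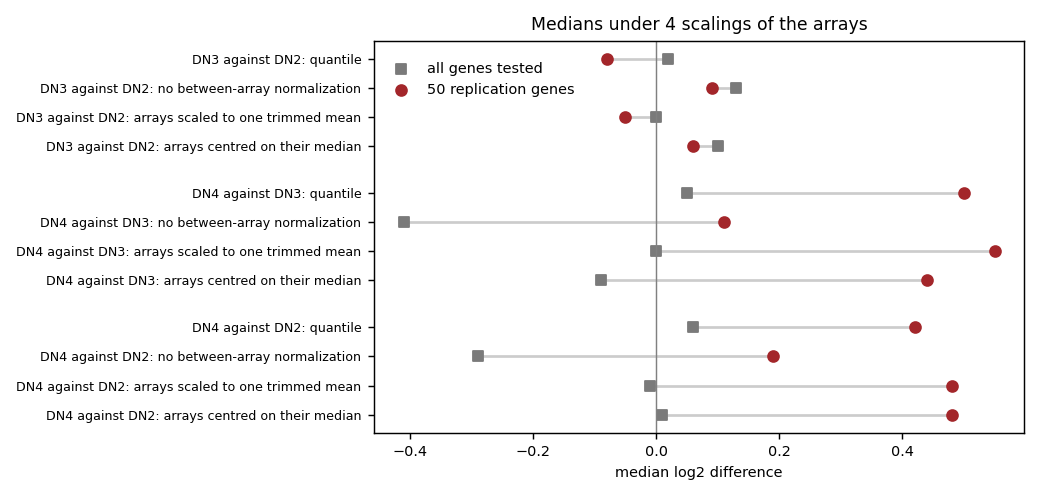
Median log2 difference (x axis) of the 50 replication genes (red) and of all genes tested (grey) for each comparison under 4 ways of scaling the arrays (y axis). From DN3 to DN4 the replication genes lie 0.45 to 0.55 above all genes under each scaling, while both medians move by scaling.

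Single arrays carried part of the calls. Leaving out 1 array at a time, the number that rose from DN3 to DN4 was 9 without DN3 sort 2, 12 without DN4 sort 4, 15 without DN3 sort 3 or DN4 sort 2, 16 without DN4 sort 1 and 17 without DN3 sort 1. Over all genes tested 796 of 11241 rose with all arrays. This was 423 of 11135 without DN3 sort 2 and 478 of 11149 without DN4 sort 4, and 530 to 560 without the other arrays named. The median difference over the 50 genes without DN3 sort 2 was 0.44. Of the 27 that passed with all arrays, Ccne1, Cdc45, Cdc7, Gins2, Gins3, Prim1, Rfc5 and Rpa3 (8) passed in all 12 of these fits. The share over all genes tested was not counted. The fits without a DN2 array keep every DN3 and DN4 array, so they bear less on this comparison. With the sort as a block, leaving out the 3 arrays of sort 2 left 24 that rose and leaving out those of sort 1 left 37. Over all genes the block gave 1713 of 11241 that rose, 839 of 10918 without sort 2 and 1297 of 10757 without sort 1.

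Differences were smaller at bright probe sets. The mean signal over arrays had a median of 778 for the genes that rose from DN3 to DN4, 1400 for those that did not pass and 4050 for the MCM ring; signals of different probe sets are not levels of their transcripts. Across the 50 genes Spearman's correlation of signal with the DN4 minus DN3 difference was -0.50, as a description over genes that share the same arrays. For 24 genes a second probe set had a signal of at least 134, the 75th percentile of the table. Where the brightest probe set exceeded 2000, the next one gave the larger difference for 9 of 13 genes (medians 0.35 and 0.48), and up to 2000 for 6 of 11 (0.55 and 0.56). Rrm1 gave 0.39 and 0.78, Cdt1 0.22 and 0.47, Rpa1 0.29 and 0.52, and Mcm4 the reverse order, 0.39 and 0.22. All 18 other probe sets of at least that signal, from 12 of the genes that rose, pointed the same way as the one used. These genes were chosen on the same arrays and RNA, so this agreement adds no support. Among genes that did not pass, such probe sets of Prim2 and Orc4 differed in sign. Whether bright probe sets compress the differences was not tested.

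**Figure D5:**
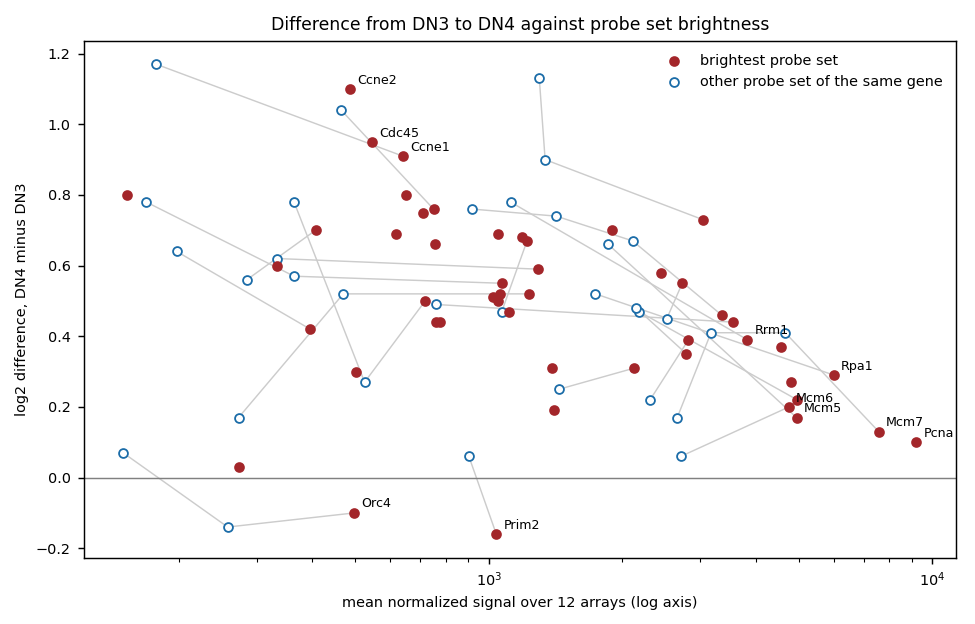
Log2 difference between DN4 and DN3 (y axis) against mean normalized signal over 12 arrays (x axis, log scale) for probe sets of the 50 genes with a signal of at least 134. Red points are the brightest probe set of a gene, open points its others, joined by grey lines; the brightest of all, Pcna and Mcm7, lie at 0.10 and 0.13.

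Other genes of replication and division were set beside the 50; over all genes tested 7.08% rose and 8.88% fell from DN3 to DN4, and 17.8% and 16.5% rose and fell from DN2 to DN4. Of 30 further replication genes that were measured, such as fork protection and chromatin assembly factors, 14 rose from DN3 to DN4 and none fell, with a median of 0.42. Donson (1.12), Exo1 (0.88), Chtf18 (0.74) and Mcmbp (0.71) had the smallest adjusted p. With the sort as a block 22 rose, against 15.2% of all genes. Between DN4 and DN2 17 rose, and Pold4, the smallest polymerase delta subunit, fell (-0.68 ± 0.18, adjusted p = 0.0107, limma). None of the 30 passed between DN3 and DN2 (limma), where 5 had an unadjusted p under 0.05, and with the sort as a block 1 rose and 3 fell, against 24.8% of all genes at that p and 9.67% and 10.7% in the blocked fit. Of 29 genes of mitosis, 28 were measured (Ccnb1 was not matched), and 14 rose from DN3 to DN4 and none fell, with a median of 0.60; Ccnb2 (0.88), Espl1 (0.74), Cdk1 (0.72) and Ccna2 (0.70) had the smallest adjusted p. The cyclin Ccnb2 also fell from DN2 to DN3 (-0.53 ± 0.16, adjusted p = 0.0493, limma). It was the 1 mitosis gene of 28 that passed there, against 4.68% of all genes that rose and 6.32% that fell. By sign 17 of the 28 were higher in DN3, with a median of 0.05. With the sort as a block 3 rose and 1 fell, against 9.67% and 10.7% of all genes.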

How the data were processed

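The values were probe set intensities (linear signals) as deposited by the authors; GCOS is the tool in the submitters' processing notes, and its version and scaling are not given in the sources here. Of 45101 probe sets, 34958 had 1 gene symbol in the platform annotation, 932 had several and 9211 had none listed. Of those with 1 symbol, 34754 were matched through Entrez identifiers to RefSeq of GRCm38.p6 and given its symbol. How many symbols changed was not counted. Probe sets with 1 symbol were used, and the brightest stood for a gene.

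Signals were quantile-normalized and log2-transformed after adding the table's 25th percentile (5.57). Genes were kept above the table's median (signal 20.1, log2 4.68) on at least 4 arrays. The tests (R 4.3.3, limma 3.58.1: lmFit on stage means of 12 arrays, then eBayes) were two-sided with 9 residual df. P-values were adjusted by Benjamini-Hochberg over 11241 genes, with a threshold of 0.05. The script was tested on simulated data. The number of arrays limits the precision. No intervals for depth apply to arrays.

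Per the labels, arrays of one number share their cells. After subtracting stage means, arrays of one sort had correlations of 0.246 to 0.336 and arrays of different sorts -0.237 to 0.106, so a blocked fit by sort is given beside the counts and the genes described. No pair of arrays held identical values, and arrays of a stage correlated at 0.962 to 0.974.

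The members and the gene lists were chosen with earlier results of these data known. The rule for named genes allowed all 50. It gave array values for the gene of each subcomplex with the smallest adjusted p, for genes that changed direction or whose bright probe sets disagreed, and named up to 4 called genes of each further list and those against its trend; not all it allows are printed. Some items are not reported here. Alternatives were other scalings, offset, filters, probe set choices, eBayes settings, subsets of sorts and left-out arrays. Figures used matplotlib 3.10.9 and pandas 2.3.3 in Python 3.11.15.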

Additional observations from a re-analysis of the deposited data

Results flagged for a closer look

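For 4 of the 150 groups of 4 arrays tested (50 genes in 3 stages), 1 array stood far from the other 3 of its stage; chance gives about 1 in 20 groups. Pole, the catalytic subunit of polymerase epsilon, had a log2 signal of 9.13 on DN2 sort 3, and 9.65 to 9.74 on the other DN2 arrays. Mcm3 was at 11.68 on DN3 sort 4 and at 11.37 to 11.4 on the other DN3 arrays. Tyms was at 5.99 on DN3 sort 2, against 6.64 to 6.75. Dut was at 12.54 on DN4 sort 4, against 12.42 on each of the others.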

How the results depend on the processing

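Numbers of replication genes that passed are given in the order DN3 against DN2, DN4 against DN3, DN4 against DN2, and the mean of DN2 and DN4 against DN3; the values reported are 2, 27, 24 and 4. The sort as a replicate block gave 6, 38, 39 and 24. No normalization between arrays gave 1, 0, 0 and 0, and centring on the array median gave 1, 13, 27 and 0. No filter on dim signals gave 2, 11, 16 and 0, and a filter at the 75th percentile 4, 34, 30 and 6. The mean of all probe sets gave 1, 28, 29 and 3, and eBayes with trend and robust 4, 36, 31 and 9. Sorts 1 and 2 alone gave 0, 3, 12 and 0, and sorts 3 and 4 alone 0, 1, 11 and 0, with medians for DN4 against DN3 of 0.57 and 0.40. From DN3 to DN4, 111 of all 10129 genes tested rose and 333 fell in sorts 1 and 2. In sorts 3 and 4 these were 154 and 379 of 10229, and with no filter 420 and 708 of 18193. With the filter at the 75th percentile they were 832 and 883 of 7146. The mean of all probe sets gave 686 and 862 of 10259, trend and robust 908 and 1121 of 11241, and the next-brightest probe set 783 and 944 of 11241. From DN2 to DN3 these 4 settings gave, in the same order, 518 and 585, 496 and 594, 632 and 806, and 524 and 671 over all genes. From DN2 to DN4 the same settings gave 1719 and 1419, 1817 and 1513, 2091 and 1940, and 2038 and 1754 over all genes. Leaving out 1 array gave 1 to 3, 9 to 29, 15 to 25 and 0 to 5 of the 50. The lowest for DN4 against DN2 was without DN4 sort 4, and the 0 was without DN3 sort 2. Without DN2 sort 1 the number for DN4 against DN2 was made of 21 that rose and 1 that fell. Alternatives chosen after seeing the data were the block with a sort left out, which gave 5 and 10 (first and last comparison) without sort 1, 1 (last) without sort 2, 4 (first) without sort 3 and 8 (last) without sort 4, and the next-brightest probe set, which gave 1, 27, 29 and 3. Where 0 passed by limma, the numbers at an unadjusted p under 0.05 were, for the mean of DN2 and DN4 against DN3, 0 above and 2 below without normalization, 14 and 2 with median centring, 23 and 1 with no filter, 20 and 1 in sorts 1 and 2, 9 and 0 in sorts 3 and 4, and 17 and 2 without DN3 sort 2. For DN4 against DN2 without normalization they were 4 and 1. For DN3 against DN2 they were 1 and 4 in sorts 1 and 2, and 4 and 1 in sorts 3 and 4. Over all genes without normalization, 1.37% were above and 23.2% below at that p for the mean of DN2 and DN4 against DN3. The shares for DN4 against DN2 were 4.6% and 32.9%. For the other settings of this kind the shares over all genes were not counted. The cause of the changes in number between alternatives was not tested, beyond fewer arrays or more genes tested where the alternative says so. For single genes in the comparisons in which they passed, 1300 values kept direction and side of the threshold, 405 lost the threshold and 1 changed sign: Gins4 from DN3 to DN4 without normalization (0 ± 0.22). Values of genes that did not pass are outside these counts. Signals near the filter limit what dim genes can show, and all 50 genes lay above it.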
